A study of Mus musculus with 7 samples.

Results

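Transcripts of 8 mouse genes that are known for their expression in spermatids, the haploid cells of the testis that become sperm, were followed across 7 arrays labelled as sorted dermal sheath cells of skin. The genes are the transition protein genes Tnp1 and Tnp2, the protamine genes Prm1 and Prm2, the tail genes Odf1 and Akap4, the sperm mitochondrial gene Smcp and the germ cell lactate dehydrogenase gene Ldhc. They were named in advance of the work below with levels of these arrays known, and their probes were found by matching each probe's accession to RefSeq. All 8 genes had a probe, out of 21145 named genes on the array, with 2 probes each for Akap4 and Ldhc, 1 for each of the others and 10 in all.

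The question was what happens when β-catenin, which carries the Wnt signal to the nucleus, is activated in the dermal sheath, the mesenchymal layer around the hair follicle. The cΔex3 group, in which β-catenin was activated, had 4 arrays from 6 mice, with replicates 1 and 4 from 1 mouse each and replicates 2 and 3 from 2 pooled mice each. The control group had 3 arrays from 4 mice, with 2 mice pooled on replicate 3. All mice were at postnatal day 15, and in both groups the sort on dermal cells kept those with YFP and without CD34, integrin α8 or alkaline phosphatase. The name cΔex3 is the usual one for a conditional β-catenin allele that loses exon 3, which stabilises the protein. The Cre driver of the allele and the genotype of the control mice are not given in the sources used here.

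Several features of the arrays bear on every value. The processed signal, a background-subtracted intensity, had a 75th percentile of 1348 to 2160 on the cΔex3 arrays and 756 to 907 on the control arrays, and levels are given either as that signal or as log2 of it relative to the array's 75th percentile. Within the cΔex3 group, 82.0% and 81.0% of probes were well above background on replicates 4 and 1, against 68.0% and 70.0% on replicates 2 and 3. By the defining markers, the arrays carried transcripts of cells other than the labelled ones. The hepatocyte list had a median between −2.04 and 0.84 on the cΔex3 arrays and between 8.76 and 9.11 on the control arrays, and the adipocyte list one between 4.36 and 6.02 on the cΔex3 arrays and between −1.28 and −1.23 on the control arrays. Of 25 genes of the dermal sheath and papilla, 19 to 24 (76% to 96%) were well above background on the cΔex3 arrays and 17 or 18 (68% to 72%) on the control arrays. Of all named genes 80.3% to 88.9% were on the cΔex3 arrays and 78.1% to 80.7% on the control arrays. Thus the list lay around that share on the former and below it on the latter. Acta2, the smooth muscle actin gene that marks the sheath, had a signal of 36737 to 84784 on the cΔex3 arrays and 477 to 1137 on the control arrays. For 4 of 7 arrays the header and the file name give different slide positions, so that samples go by the deposit's own record and groups by their labels.

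Spermatids form from spermatocytes by meiosis, which in a young mouse is first completed after postnatal day 15, the age on the labels. As they elongate they replace the histones of their chromatin, first by transition proteins and then by protamines, and build an acrosome and a tail. Their genes are transcribed early and the mRNAs are stored for later use, and transcription factors of the CREM family acting on cyclic AMP response elements (CRE) drive many of them. Skin is not known for this programme.

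The promoters of 7 of the 8 genes were in the RefSeq table on GRCm38.p6, and those that held a searched motif within 250 bases of the annotated start are shown here, because genes that share a profile across arrays may be read beside the elements for which the spermatid programme is known. Each line gives the 110 bases before the start, and Odf1 is named only. Capitals mark 3 motifs searched on both strands, namely TGACNTCA for a CRE-like element, TGACG for a CRE half-site, which overlaps the first where N is G, and TATAAA for a TATA box.
Prm1, chr16:10796824-10796933, minus strand: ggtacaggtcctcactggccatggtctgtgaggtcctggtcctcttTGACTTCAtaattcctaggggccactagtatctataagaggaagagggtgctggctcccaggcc
Prm2, chr16:10792106-10792215, minus strand: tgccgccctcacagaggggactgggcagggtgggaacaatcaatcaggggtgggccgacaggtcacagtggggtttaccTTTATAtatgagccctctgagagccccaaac
Tnp1, chr1:73015900-73016009, minus strand: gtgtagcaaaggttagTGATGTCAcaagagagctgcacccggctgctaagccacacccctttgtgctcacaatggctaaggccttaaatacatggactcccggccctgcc
Akap4, chrX:7067405-7067514, plus strand: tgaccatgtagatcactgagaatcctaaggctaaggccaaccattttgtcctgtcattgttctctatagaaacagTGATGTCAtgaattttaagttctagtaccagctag
Ldhc, chr7:46861153-46861262, plus strand: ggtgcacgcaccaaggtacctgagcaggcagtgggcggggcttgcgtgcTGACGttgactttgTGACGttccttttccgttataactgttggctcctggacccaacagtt

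A CRE-like match stood 64 to 57 bases before the start in Prm1 and, on the minus strand relative to the gene, 94 to 87 bases before it in Tnp1 and 35 to 28 bases before it at the first of the 2 annotated starts of Akap4. Among the promoters of these genes 3 of 9 held it, and among all 32851 promoters listed by RefSeq the share was 7.49%. Of 76 promoters of the other spermatid genes listed for this work, 31.6% held a CRE-like match, and the half-site was in 25.0% of them against 17.8% of all promoters. In Ldhc 2 half-sites began 61 and 47 bases before the start, and the only TATA match was on the minus strand of Prm2. A match describes letters in this window, and factor binding was not measured.

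**Figure D1:**
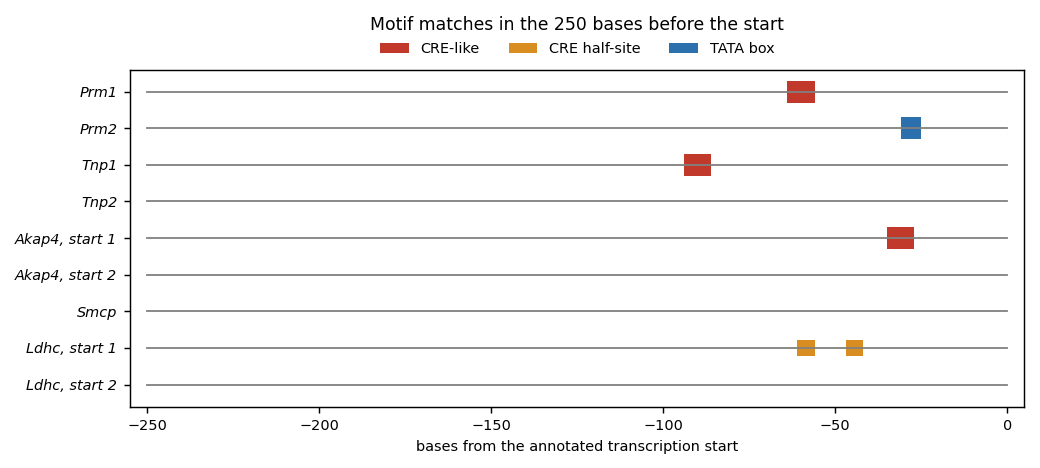
Positions of motif matches in the 250 bases before each annotated start of 7 of the genes, with bases from the start on the horizontal axis and 1 line per start. CRE-like matches lie within 94 bases of the start in Prm1, Tnp1 and Akap4, and Tnp2, Smcp and the second starts of Akap4 and Ldhc hold none of the 3 motifs.

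Transition proteins come first in the exchange of sperm chromatin. Tnp1 had a processed signal of 1700, 1202, 929.6 and 11424 on cΔex3 replicates 1 to 4, against 150.0, 141.1 and 134.8 on control replicates 1 to 3. Tnp2 had 1395, 816.8, 771.9 and 14918 on the cΔex3 arrays and was well above background on 0 control arrays, where its signals were 3.875, 15.29 and 7.192. For both genes every cΔex3 array lay above every control array, and replicate 4 lay above the other cΔex3 arrays. The cΔex3 group averaged 0.32 ± 1.43 for Tnp1 on the relative log2 scale (SD, n = 4) and the control group −2.51 ± 0.21 (SD, n = 3). For Tnp2 only a bound holds, and the mean of the cΔex3 arrays was at least 62.4-fold higher than, on each control array, the lowest signal well above background or Tnp2's own signal, whichever was higher.

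Protamines, small arginine-rich proteins, then pack the DNA of the sperm head. Prm1 had a signal of 15572, 7271, 6479 and 111133 on the cΔex3 arrays and 35.31, 38.65 and 23.68 on the control arrays. Its mean was 3.29 ± 1.66 in the cΔex3 group (SD, n = 4) and −4.66 ± 0.52 in the control group (SD, n = 3) on the relative log2 scale, a difference of 7.95. Prm2 had 9178, 3760, 4219 and 163556 on the cΔex3 arrays, and 300.4, 495.6 and 397.0 on the control arrays. Its control signals were well above background on 3 of 3 arrays, and the group means were 2.84 ± 2.31 for cΔex3 and −1.05 ± 0.39 for control (SD, n = 4 and 3). The mean difference was 3.89, and the lowest cΔex3 array lay 1.96 above the highest control array.

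The next genes build the tail. Odf1, which encodes a protein of the outer dense fibres along the sperm tail, had a signal of 75.15, 18.21, 20.13 and 1387 on the cΔex3 arrays and 3.185, 3.043 and 3.767 on the control arrays. It was well above background on cΔex3 replicates 1 and 4 and on 0 control arrays, so that no fold between the groups is given. Akap4, an anchoring protein gene of the fibrous sheath, had 529.5, 160.2, 185.7 and 6644 on the cΔex3 arrays and 46.32, 36.99 and 54.47 on the control arrays. Its other probe had 606.8, 160.3, 211.2 and 9089 on the cΔex3 arrays, within 0.45 of the first on the relative log2 scale. On the control arrays that probe had 2.857, 3.018 and 3.890, and it was well above background on 0 of 3. The control level of Akap4 is therefore not settled between its probes, while its order over the cΔex3 arrays differed only between replicates 2 and 3.

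Smcp, a cysteine-rich protein gene of the sperm mitochondrial sheath, had a signal of 2957, 918.4, 1245 and 74732 on the cΔex3 arrays and 43.02, 21.00 and 200.0 on the control arrays. Control replicate 3 lay above the other control arrays for this gene, with an SD of 1.52 in that group. Ldhc, a lactate dehydrogenase subunit gene whose transcription is known to start in meiotic spermatocytes, had 1138, 156.9, 94.09 and 2299 on the cΔex3 arrays and 33.46, 18.41 and 27.91 on the control arrays. With the other Ldhc probe the signals were 2585, 321.9, 161.7 and 6203 on the cΔex3 arrays, while on the control arrays they were 4.537, 3.046 and 6.598 and not well above background. Both probes put replicates 4 and 1 together and apart from replicates 2 and 3.

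**Figure D2:**
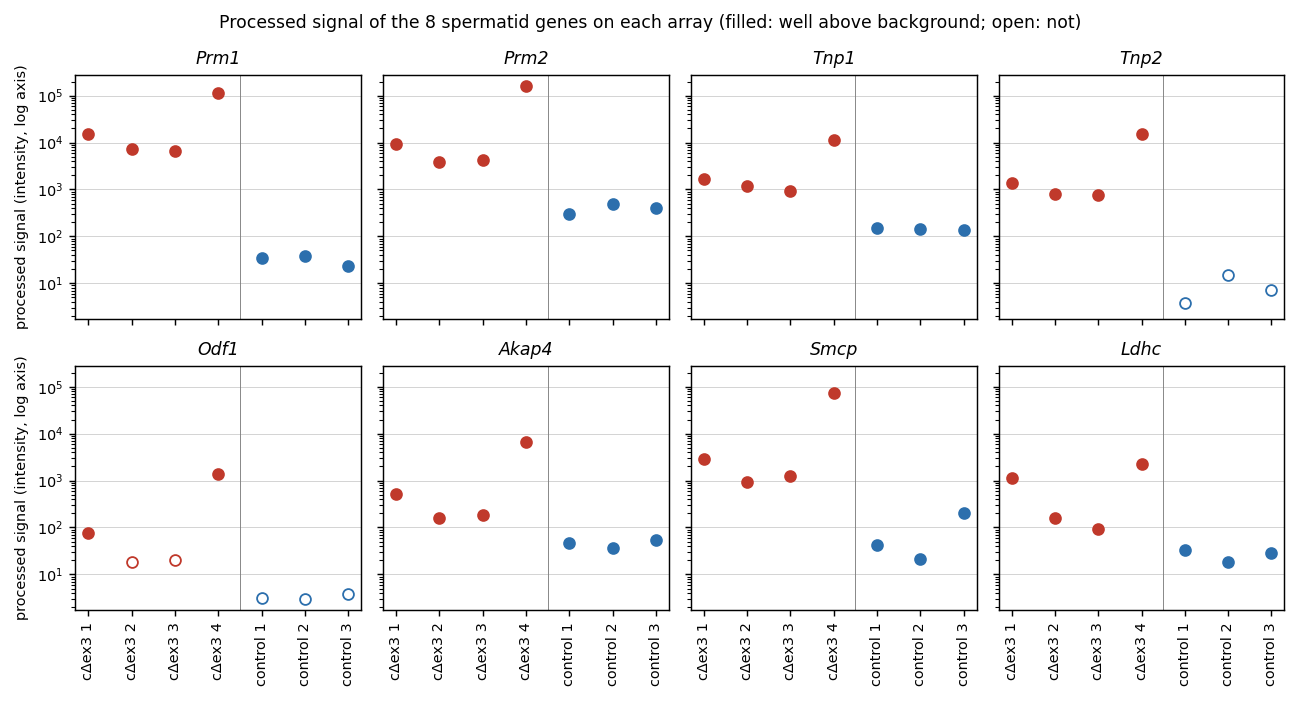
Processed signal (log axis) of the 8 genes on each array, cΔex3 arrays in red and control arrays in blue, filled where the probe is well above background. Replicate 4 is the highest of the cΔex3 arrays in each panel, and Tnp2 and Odf1 have no filled point among the control arrays.

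The number of the 8 genes above background lay near the share over all named genes on each array. On cΔex3 replicates 1 to 4 there were 8, 7, 7 and 8 genes well above background, where 87.6%, 80.3%, 80.5% and 88.9% of all named genes were. On each of the control arrays 6 were, where 80.7%, 78.1% and 79.1% of named genes were. In every one of the 8 genes all cΔex3 arrays exceeded all control arrays, a pattern shown by 24.7% of the 19429 named genes that were above background on some array. For Odf1 that order rests on signals not well above background on cΔex3 replicates 2 and 3 and on the control arrays. These counts describe genes chosen for their levels and carry no test. The difference of Akap4 between the groups was 1.47 on the log2 scale without cΔex3 replicate 4, against 2.55 with it. Without that array the differences of the other genes above background in both groups were 7.15 for Prm1, 2.76 for Prm2, 2.13 for Tnp1, 3.73 for Smcp and 2.31 for Ldhc, so that each fold was smaller by over 1.5 times and kept its sign. For Akap4 and Ldhc these values depend on the probe. Their other probes were above background on 0 control arrays, and with all arrays they were at least 21.9-fold and 31.9-fold higher in the cΔex3 group. In bulk RNA, more cells of a type and more RNA per cell cannot be told apart.

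Replicate 4 stood above replicates 1 to 3 by an amount that differed between the genes. After each array was scaled to its 75th percentile, it exceeded each of the other cΔex3 arrays at least 4-fold in 7 of the 8 genes, where 4.63% of named genes did so, and the same count was 0 of 8 on each of the other 6 arrays. Of named genes 0.0721%, 0.309% and 0.252% did so on cΔex3 replicates 1 to 3, and 0.566%, 0.237% and 0.7% on the control arrays. On cΔex3 replicate 4, 19 of 72 other spermatid genes and 22 of 37 epididymis genes did so. The 8 genes were chosen with their levels known, so their count describes them and carries no test. Smcp was 21.7-fold, 50.8-fold and 46.1-fold higher on replicate 4 than on replicates 1, 2 and 3. For Odf1 the ratios were 15.9, 47.5 and 52.9, with replicates 2 and 3 not well above background, and for Prm2 they were 15.3, 27.1 and 29.8. Tnp1 had the smallest ratios to replicates 2 and 3, at 5.93 and 9.44. The transition proteins and Prm1 thus spanned a narrower range over the cΔex3 arrays than Smcp, Akap4 and Prm2, with SDs of 1.43 to 1.79 against 2.24 to 2.66.

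Ldhc was the exception. Its replicate 4 was 1.74-fold above replicate 1, or 2.06-fold with the other probe, but 9.15-fold above replicate 2 and 18.8-fold above replicate 3. Replicate 1 exceeded replicate 2 by 5.26-fold and replicate 3 by 10.8-fold for Ldhc, whereas for the other 7 genes these ratios were 1.03 to 2.99 and 1.61 to 3.33. In all 8 genes replicate 4 was the highest cΔex3 array and replicate 1 the next, an order that 14.6% of named genes had. Replicate 2 minus replicate 3 was 1.04 on the relative log2 scale for Ldhc, 0.09 to 0.67 for 6 genes and −0.14 for Smcp. Odf1, whose 2.99 and 3.33 are the upper ends of the ratios above, was not well above background on replicates 2 and 3. Replicates 4 and 1 are the arrays of single mice and those with the larger share of probes above background, and the part of either in these levels was not tested.

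**Figure D3:**
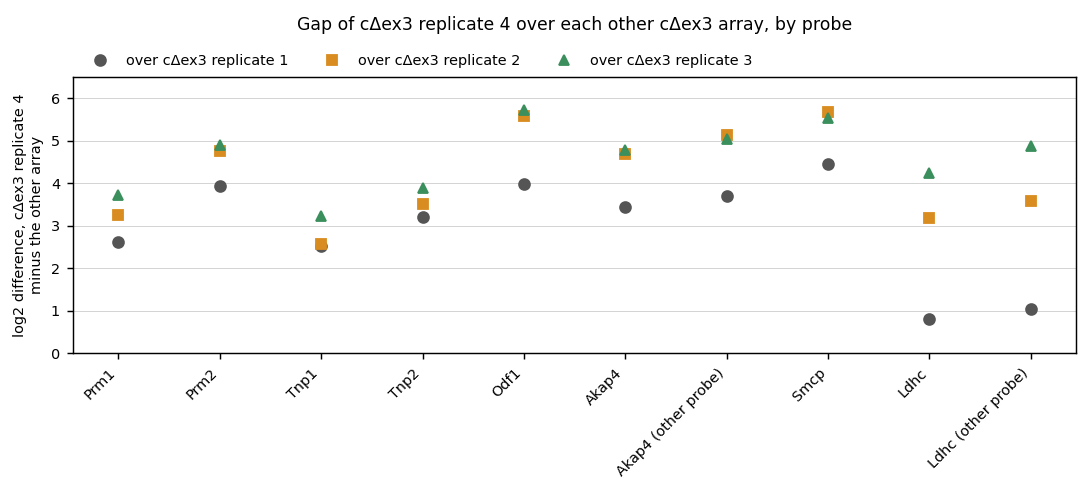
Difference on the log2 scale between cΔex3 replicate 4 and each of cΔex3 replicates 1, 2 and 3, for each probe of the 8 genes. The gap to replicate 1 is 0.80 and 1.05 for the Ldhc probes and 2.53 to 4.44 for the others, and every gap to replicates 2 and 3 is at least 2.57.

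Genes of other stages of spermatogenesis were read beside the 8. Of 46 meiotic genes with a probe, such as those of the synaptonemal complex, 39, 25, 26 and 40 were well above background on cΔex3 replicates 1 to 4, and 28, 28 and 30 on the control arrays. The shares of all named genes were 87.6%, 80.3%, 80.5% and 88.9%, and 78.1% to 80.7% on the control arrays. They too were higher on replicates 1 and 4 than on replicates 2 and 3. Their median gap between replicate 4 and replicate 1 was 0.36 on the log2 scale. It was 1.1 for 72 other spermatid genes, −0.07 for all named genes and 3.32 for the 8 genes, which were chosen with these levels known. Replicate 4 was the highest cΔex3 array in 25 of 42 meiotic genes above background on some array (59.5%), against 31.0% of all named genes. The synaptonemal complex gene Sycp3 had a signal of 416.8, 1620, 925.0 and 471.6 on the cΔex3 arrays and 229.2, 300.6 and 351.0 on the control arrays, so that replicate 4 was not the highest. Syce2, of the same complex, had 1811, 1243, 1176 and 6395 on the cΔex3 arrays and 643.8, 610.3 and 843.8 on the control arrays. Dmc1, a recombinase gene of meiosis, was above background on cΔex3 replicates 1 and 4, with signals of 37.51 and 36.27, and on 0 control arrays. Sycp1, another gene of the synaptonemal complex, was above background on 1 of 7 arrays.

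Premeiotic germ cell genes had a median of replicate 4 minus replicate 1 of 0.13. Of 26 with a probe, 21, 16, 17 and 21 were well above background on replicates 1 to 4 and 17, 13 and 16 on the control arrays. On each array that was below the share of all named genes. Ddx4, the RNA helicase gene that marks the germ line, had 203.9, 34.92, 42.38 and 325.0 on the cΔex3 arrays and 22.66, 3.352 and 32.94 on the control arrays, in the order 4 and then 1 (limma, adjusted p = 0.164 between the groups). Dazl, a germ line RNA-binding protein gene, was well above background on 0 of 7 arrays. Stra8, the retinoic acid target that precedes meiosis, had 72.03, 59.07, 66.37 and 91.05 on the cΔex3 arrays and 57.65, 12.69 and 46.83 on the control arrays. Crem, the gene of the factor that drives many spermatid genes, had 1901, 1833, 2466 and 1474 on the cΔex3 arrays, with replicate 4 the lowest, and 2834, 1726 and 2468 on the control arrays. On the relative log2 scale Crem fell by 1.38 (limma, adjusted p = 0.00993), though the processed signals of the groups overlapped.

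Somatic cells of the testis were read through Sertoli and Leydig cell genes. Amh, the Sertoli cell gene of anti-Müllerian hormone, was well above background on 0 of 7 arrays. Of 25 genes on the Sertoli list, 18, 17, 18 and 20 were well above background on cΔex3 replicates 1 to 4 and 16, 14 and 16 on the control arrays. These were 68% to 80% and 56% to 64% of the list, where 80.3% to 88.9% and 78.1% to 80.7% of all named genes were. Rhox8, a homeobox gene of Sertoli cells, had 79670 to 257780 on the cΔex3 arrays and 117328 to 261859 on the control arrays. It fell by 1.56 on the relative log2 scale (limma, adjusted p = 0.0194), though the signals of the groups overlapped. Hopx fell by 2.78 (limma, adjusted p = 8.13e-05), while Inhbb rose by 2.52 (adjusted p = 0.00594). Gstm6 did not pass (adjusted p = 0.11) and had 55245 on replicate 4, against 4337 to 9023 on the other cΔex3 arrays. Of the Sertoli genes tested 8 rose and 5 fell, where 24.0% of all genes tested rose and 29.1% fell. Of 10 Leydig genes 7, 5, 4 and 5 were above background on the cΔex3 arrays and 8, 6 and 8 on the control arrays. That was 40% to 70% and 60% to 80% of them, beside the same shares of all named genes. Cyp17a1, an enzyme gene of androgen synthesis, had 17419 to 32599 on the cΔex3 arrays and 27913 to 37464 on the control arrays. It fell by 1.59 on the relative log2 scale (limma, adjusted p = 0.00252), again with overlapping signals. The median of replicate 4 minus replicate 1 was 0.24 for Sertoli and 0.02 for Leydig genes, beside the 1.1 for the other spermatid genes. The median gaps to replicates 2 and 3 were 0.47 and 0.87 for Sertoli, −0.44 and −0.14 for Leydig and 2.52 and 2.59 for the other spermatid genes. The Sertoli list had median levels of −2.89, −3.74, −2.76 and −0.62 on replicates 1 to 4. On replicate 4, 4 of 21 Sertoli genes lay at least 4-fold above the other cΔex3 arrays, as did 4.63% of all named genes.

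**Figure D4:**
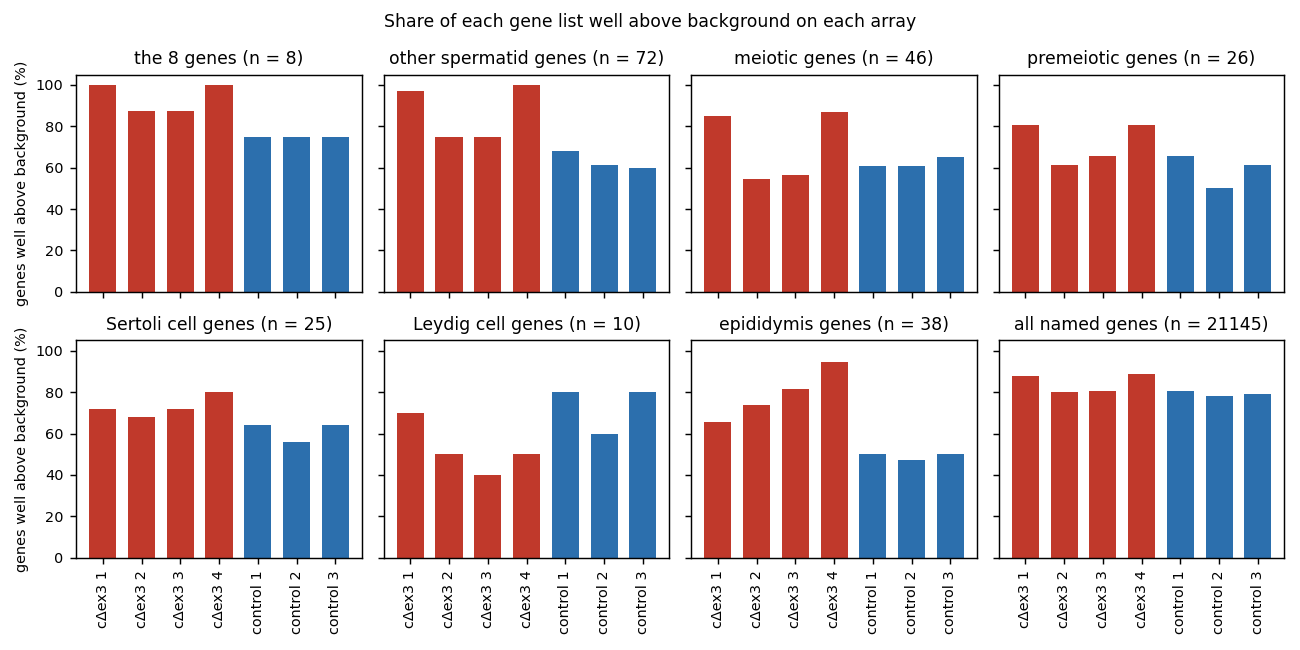
Percentage of the genes of each list that were well above background, by array, with cΔex3 arrays in red and control arrays in blue and n the genes with a probe. The other spermatid genes reach 97.2% and 100% on cΔex3 replicates 1 and 4 and 59.7% to 75% on the other 5 arrays.

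A wider list of 78 spermatid genes without the 8, of which 72 had a probe, was compared between the groups by limma over all 18027 genes tested. Of 59 tested, 19 rose and 6 fell in the cΔex3 group at an adjusted p under 0.05, where 24.0% of all genes tested rose and 29.1% fell. The median difference was 0.88, against −0.08 for all genes tested. The list was chosen with earlier results of these data known, so its counts and median describe it and are no independent support. Of the 59, 9 were above background on 0 control arrays and so entered only through the cΔex3 arrays, and 6 of the 19 that rose were among them. Genes above background on some but not all control arrays also needed cΔex3 arrays to pass the filter. With genes above background on all 7 arrays, 7 rose and 6 fell of 40, with a median of 0.24. Without cΔex3 replicate 4 there were 21 higher and 14 lower, without control replicate 2 there were 11 and 5, and without control replicate 3 there were 12 and 6. The adipocyte list had a median difference of 5.66 between the same groups and the hepatocyte list one of −8.71, and their part in these calls was not tested.

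Of 2 genes of sperm chromatin with a probe 2 rose, each passing the filter only with the help of the cΔex3 arrays. Of 5 tested genes of kinases and signalling 2 rose and 3 did not pass, where 24.0% of all genes tested rose. Prm3, a protamine-related gene that lies between Tnp2 and Prm2 in the RefSeq gene order, had 307.0, 106.3, 86.78 and 3014 on the cΔex3 arrays and 3.952, 41.47 and 8.569 on the control arrays. It rose by 3.66 ± 1.28 (SE; limma, adjusted p = 0.0474). Only 1 control array was well above background for Prm3, so that difference rests partly on background values. Hils1, a linker histone-like gene of spermatids, had 443.0, 46.53, 47.46 and 1369 on the cΔex3 arrays and was above background on 0 control arrays, so that it entered the test only through the group where it was high. Tssk3 and Tssk6, testis-specific serine kinase genes, had 3485 and 7610 on replicate 4, where the other cΔex3 arrays had 94.01 to 320.3 for Tssk3 and 300.9 to 420.0 for Tssk6. Tssk6 rose (adjusted p = 0.0493), while Tssk3 was above background on 0 control arrays and entered the test as Hils1 did. Of the same role, Tssk1 had a difference of −0.42 (adjusted p = 0.31) and Dkkl1, a gene of the acrosome, one of 0.06 (adjusted p = 0.932). Unless they are the brightest 10 of the list, the neighbours or the nearest profiles, the spermatid genes in this and the next paragraph were picked after their values had been seen.

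Genes of the acrosome, the tail and energy metabolism were read next. Of 16 genes of the acrosome and egg binding, 16, 10, 11 and 16 were above background on cΔex3 replicates 1 to 4 and 10, 8 and 8 on the control arrays, and of 12 tested 3 rose and 2 fell. Of all named genes 87.6%, 80.3%, 80.5% and 88.9% were above background on these cΔex3 arrays and 78.1% to 80.7% on the control arrays. Of 19 tail genes with a probe, 15 were tested, and 4 rose and 3 fell. Both counts of genes that rose lie near the 24.0% over all genes tested. Tekt1, a tektin of the axoneme that ciliated cells also use, rose with its highest signals on replicates 1 and 2, at 3796 and 3786, against 1015 on replicate 4. Gapdhs and Pgk2, glycolytic isozyme genes of sperm, were highest on replicate 4 and did not pass the test between the groups. Gapdhs had 847.0, 243.9, 343.3 and 13886 on the cΔex3 arrays and 189.9, 130.4 and 123.7 on the control arrays (adjusted p = 0.281), and Pgk2 had 297.6, 96.50, 101.3 and 3437 on the cΔex3 arrays and 88.81, 89.60 and 59.48 on the control arrays (adjusted p = 0.512). Cox8c, a cytochrome oxidase subunit gene, had 1055 and 1643 on replicates 1 and 4 and 131.4 and 44.14 on replicates 2 and 3. That pattern was like that of Ldhc. On the control arrays it had 15.48, 3.15 and 8.28, and only 1 of them was well above background. Cox8c rose (limma, adjusted p = 0.0228), but it passed the filter only with the help of the cΔex3 arrays. Its difference rests partly on background values. Among the 10 genes of the list with the highest mean level 2 rose, 3 fell and 5 did not pass. Spata6 rose by 2.99 (adjusted p = 0.000357) and Pabpc1l by 5.05 (adjusted p = 5.34e-05), each with replicate 4 the lowest cΔex3 array. Ropn1l fell by 1.87 (adjusted p = 0.00201), Pcsk4 by 3.19 (adjusted p = 0.000169) and Sun5 by 1.05 (adjusted p = 0.00217). These falls are on the relative log2 scale, and the processed signals of Ropn1l and Sun5 overlapped between the groups.

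In the same limma fit, where 24.0% of all genes tested rose and 29.1% fell, 5 of 32 meiotic genes tested rose and 9 fell. Their median difference was −0.17. Of 19 premeiotic genes 2 rose and 8 fell, and of 18 Sertoli genes 8 rose and 5 fell. Of 7 Leydig genes 0 rose, also at an unadjusted p under 0.05, and 5 fell. Of 29 epididymis genes 10 rose and 2 fell. Of 25 genes of ciliated cells, whose cilia share axoneme parts with the sperm tail, 10 rose and 1 fell. Genes above background on 0 control arrays could enter this fit only through the cΔex3 arrays. Among genes with a probe, 18 of 38 epididymis and 9 of 27 ciliated cell genes were of that kind. The median difference was 6.09 for the epididymis list and 2.23 for the ciliated cell list. All 15 adipocyte genes rose and all 20 hepatocyte genes fell, and of 23 genes of the dermal sheath and papilla 12 rose and 2 fell.

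The order of the cΔex3 arrays set spermatid genes beside epididymis genes, which come from the duct that stores sperm. Replicate 4 was the highest and replicate 1 the next in 56 of 72 other spermatid genes, in 20 of 42 meiotic genes, in 7 of 24 genes of the dermal sheath and papilla and in 3 of 37 epididymis genes, where 14.6% of all named genes had this order. In the epididymis list 23 of 37 had replicate 4 highest and replicate 3 next, as did 1 of the 72 spermatid genes, 0 of the 8 and 6.94% of all named genes. Adam7, a membrane protein gene of the epididymal epithelium, had 1276, 7515, 55487 and 384274 on cΔex3 replicates 1 to 4 and 15.88 to 39.72 on the control arrays. Crisp1, a secreted protein gene of the same duct, was above background on replicate 4 alone, at 303461, where the other cΔex3 arrays had 5.174 to 16.64 and the control arrays 3.103 to 14.12. Replicate 4 thus had the highest median of the 7 arrays for both lists, at −1.32 for the other spermatid genes and 4.50 for the epididymis genes, and replicate 1, the next for the spermatid genes, was the lowest cΔex3 array for Adam7.

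**Figure D5:**
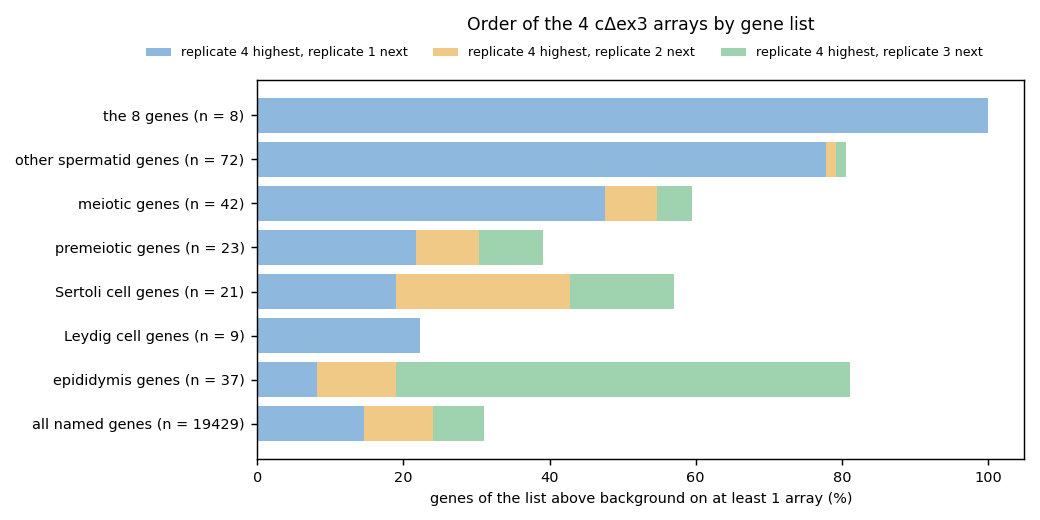
Percentage of the genes of each list that had cΔex3 replicate 4 as the highest cΔex3 array, split by which replicate came next, for genes above background on at least 1 array. Replicate 1 comes next in 77.8% of the other spermatid genes and in 8.11% of epididymis genes, where replicate 3 comes next in 62.2%.

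Among 19421 other named genes above background on at least 1 array, the 10 whose profile over the 7 arrays lay nearest to the mean profile of the 8 genes were H2bl1, Cdrt4, Spz1, Tmem150c, Gsg1, 1700009N14Rik, Iqcf5, Prokr1, Ccdc54 and Tcp11. Their distance, the root mean square of the difference after each profile was centred on its own mean, was 0.25 to 0.37, against a median of 2.65 for all genes and 0.41 to 1.78 for the 8 genes themselves. Gsg1, a germ cell gene, had 2701, 981.2, 948.0 and 38677 on the cΔex3 arrays and 98.54, 65.69 and 70.33 on the control arrays. Tcp11, a sperm protein gene, had 2703, 1039, 474.5 and 20948 on the cΔex3 arrays and 43.87, 31.82 and 50.07 on the control arrays. These 2 were on the spermatid list, and 7 of the 10, all but Gsg1, 1700009N14Rik and Tcp11, were above background on 0 control arrays. The nearest profiles were chosen on these values and carry no test.

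Neighbours on the chromosome did not all share the profile. Prm1, Prm2, Prm3 and Tnp2 follow one another in the RefSeq gene order, and Socs1, the cytokine signalling inhibitor gene on the other side of Tnp2, had 1198, 855.6, 878.6 and 818.0 on the cΔex3 arrays and 161.4, 137.6 and 314.6 on the control arrays, with replicate 4 the lowest cΔex3 array. The lncRNA gene 1700027A15Rik, which adjoins Tnp1, had 1348, 589.7, 783.7 and 11622 on the cΔex3 arrays and 241.1, 301.4 and 249.9 on the control arrays, with replicate 4 the highest and replicate 1 the next. Ccnb3, next to Akap4, was well above background on 0 of 7 arrays, and Tsg101, next to Ldhc, had 2969 to 4974 on the cΔex3 arrays and 1714 to 1965 on the control arrays, a difference of −0.09 on the relative log2 scale (limma, adjusted p = 0.723).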

How the data were processed

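Array intensity was read per spot by the authors with Agilent Feature Extraction 10.7.1.1, per the file headers, as a processed signal that is background-subtracted and detrended within each array. The same deposited files hold a 0 or 1 flag for spots well above background. The deposited series table holds log2 values with nearly equal distributions, and its background correction is not given in the sources used here. From the processed signal, log2 values minus each array's 75th percentile were computed after control and outlier spots were left out. Probes were named through RefSeq accessions, and the probe with the highest mean stood for a gene. Genes called well above background by 3 or more of the 7 arrays, 18027 in number, were compared by limma 3.58.1 with Benjamini-Hochberg adjustment and a threshold of 0.05, and the fit was tested on simulated data. The members and the lists were chosen with earlier results of these data known, so the 8 genes have no test. Of them, 7 passed the filter and Odf1 did not. Genes named beside the members were fixed markers, the 10 spermatid genes and the 4 of each other list with the highest mean, RefSeq neighbours and the 10 nearest profiles. The normexp alternative used the median spot signal with an offset of 50. The headers give 1 slide number for all 7 arrays, which differs from the one in the file names on 7 of 7, and the number of arrays limits the precision. Same-numbered arrays did not deviate together, with correlations of −0.009, −0.001 and 0.018. Each array is a separate sample per the labels. Insl3 was not analysed here.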

Additional observations from a re-analysis of the deposited data

Results flagged for a closer look

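In 6 of 73 named genes other than the 8 1 cΔex3 array lay far from the other 3 by Dixon's ratio, the gap to the nearest array over the whole range, and chance alone gives that in about 1 in 20 groups. Replicate 4 was far above the others for the epididymal gene Crisp1 (ratio 0.902), which was above background on that array alone, for Ccin, a calicin gene of the sperm head (0.912), and for Ccno, a cyclin gene of ciliated cells (0.84). Replicate 3 was far below the others for Meig1, a gene of sperm tail assembly (0.905), Rec8, a meiotic cohesin gene (0.864), and Hspa2, a heat shock protein gene of spermatocytes (0.965).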

How the results depend on the processing

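Of 324 values recomputed under other settings, 311 were labelled as kept, 13 as moved and 0 as reversed. A difference was kept if its direction held and it moved by less than the SD over the 4 cΔex3 arrays. That SD was 1.43 to 2.67 for the 8 genes, and their median of 2.12 was used for the medians. It includes replicate 4, the highest cΔex3 array for each of the 8, so large shifts could be kept. Odf1 was labelled as kept though its difference was 3.46 as reported and 1.5 with normexp and quantile normalisation. A count was kept if it stayed within 1.5 times, and 0 against 0 was kept too. For the median difference of the other spermatid genes only the direction was compared, and its 19 values ran from 0.24 to 1.89 against 0.88. The count of other spermatid genes that rose, 19 in the analysis reported, was 7 among genes above background on all 7 arrays, 12 with the authors' deposited table and 11 with normexp and quantile normalisation. The count that fell, 6 as reported, was 14 with array weights. With the replicate number as a block 22 rose and 13 fell, and the numbers do not pair the samples. With slide row as a block 14 rose and 5 fell. Leaving out 1 array at a time gave 11 to 21 that rose and 5 to 14 that fell, with 11 higher without control replicate 2, 12 without control replicate 3 and 14 lower without cΔex3 replicate 4. The cause of these moves was not tested, other than that fewer genes or arrays entered some of them. The Tnp2 difference, which rests on control values at background, was 4.35 with normexp and 4.45 with the authors' deposited table, against 6.88. The number of the 8 genes at least 4-fold higher on cΔex3 replicate 4 was 7, and 5 at a threshold of 8-fold. On control replicate 3 that number was 0, and 1 with quantile normalisation, with the percentile over probes above background on all arrays, or at 2-fold. Quantile normalisation put the median difference of all genes at 0.13, against −0.08 as reported. Signals not well above background give bounds only.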
